A study of Mus musculus with 5 samples.

Results

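Resident-like macrophages of the mouse kidney were defined here as cells rich in C1q transcripts that also carried Cx3cr1, and 1807 of the 60043 cells kept in the series met that definition. Members were chosen by their own unique molecular identifiers (UMIs, each standing for 1 captured RNA molecule). A member showed 200 genes or more and no more than 30% UMIs of mitochondrial genes, at least 10 UMIs of C1qa, C1qb and C1qc together and at least 1 UMI of Cx3cr1. It had at most 1 UMI of Fn1, of Ctsk, of Mki67 and Top2a together and of Cd3e, Cd3d and Cd3g together, and at most 2 UMIs of Egfl7 and Plvap together, which keeps out matrix-producing and osteoclast-like macrophages, dividing cells, T lymphocytes and endothelium. Because these genes picked the cells, their values are given as a description and were left out of every test.

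All animals were wild-type male C57BL/6 mice of 8 to 10 weeks that carried no transgene. Mice of the phases of acute kidney injury (AKI) and of chronic disease (CKD) were injected intraperitoneally with 3 mg/kg of aristolochic acid I (AAI), a plant toxin taken up by the proximal tubule, once every 3 days during 2 weeks. AKI kidneys were taken at week 2, CKD kidneys at week 4 after 2 weeks without toxin, and control mice had vehicle alone. Kidneys were digested for 30 minutes and sequenced in droplets without a sort, as 1 control library, 2 AKI libraries (AKI 1 and AKI 2) and 2 CKD libraries (CKD 1 and CKD 2). The labels do not say whether the libraries of a phase came from separate mice, so that p-values measure only the spread between these libraries, which may be technical, and the single control library entered no test.

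Resident macrophages of the kidney settle in part before birth, lie between tubules and vessels and are told by surface F4/80 (the product of Adgre1), by the fractalkine receptor CX3CR1 and by C1q, the recognition subunit that starts the classical complement pathway. They take up immune complexes and dying cells, present antigen on MHC class II and depend on the growth factor receptor CSF1R. After injury, monocytes from the blood enter the kidney and can take on part of this phenotype, including C1q and CX3CR1, so that transcripts alone do not give a cell's origin.

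Libraries held 90028670 to 121316769 UMIs over all barcodes. The control gave 418 members with 2155954 UMIs, AKI 1 gave 418 with 4943010, AKI 2 gave 586 with 6948594, CKD 1 gave 238 with 1944407 and CKD 2 gave 147 with 1751970. A median member held 4133.5 UMIs in the control, 10862 and 10897.5 in the AKI libraries and 7481 and 11633 in the CKD libraries, so that the control cells were the shallowest. Median mitochondrial content was 6.41% in the control and 3.32 to 3.75% in the other libraries. No barcode was a member in 2 libraries. At most 4 member barcodes of a library recurred among the kept cells of any other, and at most 1 of them was deeper there. Levels are given below as UMIs per 10000 UMIs summed over the members of a library.

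The definition selected cells with a macrophage transcriptome. C1qa stood at 37.8 UMIs per 10000 in the control, 51.3 and 51.0 in the AKI and 46.2 and 53.1 in the CKD libraries, against at most 0.246 in T lymphocytes of the same libraries. Members were chosen for C1q and T lymphocytes for at most 1 UMI of it, so that this contrast follows from the choice of cells. Cx3cr1 stood at 6.26 in the control, 4.68 and 4.62 in AKI and 3.98 and 4.01 in CKD. Adgre1, which the definition did not use, stood at 2.57 in the control, 2.72 and 2.30 in AKI and 1.81 and 1.67 in CKD, and at no more than 0.0241 in T lymphocytes. All 15 genes of a core macrophage list, among them Ctss, Tyrobp and Aif1, were tested and present. Of genes that mark long-lived macrophages of other tissues, Timd4 had no UMI in any member. Lyve1 stood at 0.0425 or less and Cd163 at 0.0742 or less. Others were carried. A list of 14 perivascular and long-lived macrophage genes, with Mrc1 and Stab1 its most abundant, summed to 4.71 in the control. It summed to 7.63 and 7.15 in AKI and 5.19 and 4.99 in CKD. The members thus matched the label by Adgre1 and the core list but not by Timd4, Lyve1 or Cd163.

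The Cx3cr1 limit parted more cells than the others. Members with exactly 1 Cx3cr1 UMI numbered 115 in the control, 80 and 106 in AKI, and 99 and 37 in CKD. C1q-rich cells just outside, with no Cx3cr1 UMI, numbered 243 in the control, 112 and 172 in AKI, and 356 and 62 in CKD. A member of CKD 1 therefore lay at the Cx3cr1 limit more often than a member of any other library, in 41.6% of cells against 18.1 to 27.5%. Outside it lay more cells than at 1 UMI in every library. Few cells lay at the C1q limit, with 1 to 7 members at 10 UMIs and 1 to 4 cells at 9 UMIs per library, and at the Fn1 limit 2 to 41 members had 1 UMI and up to 8 cells had 2 UMIs.

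The first comparison asked how many of these cells each phase held. They made up 4.56% of kept cells in the control (95% Clopper-Pearson interval 4.14 to 5.01%). AKI 1 held 3.73% (3.39 to 4.10%) and AKI 2 5.40% (4.98 to 5.84%), whereas CKD 1 held 1.23% (1.08 to 1.40%) and CKD 2 1.55% (1.31 to 1.82%). Both CKD libraries lay below both AKI libraries and below the control. The phase means were 4.57% ± 1.18 in AKI and 1.39% ± 0.222 in CKD (SD, n = 2 libraries each), a difference of -3.18 percentage points with a two-sided exact permutation p of 0.333, the smallest that 2 against 2 libraries can give. With every cell thinned to 2000 UMIs the difference was -2.88 points. Among cells other than T lymphocytes, members were 5.29% in the control, 9.63% and 13.7% in AKI and 2.32% and 5.11% in CKD, a difference of -7.95 points. By that denominator the control lay below both AKI libraries and close to CKD 2. The intervals cover counting error only, and digestion and the capture of other cell types also set these shares, a part that was not tested.

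**Figure D1:**
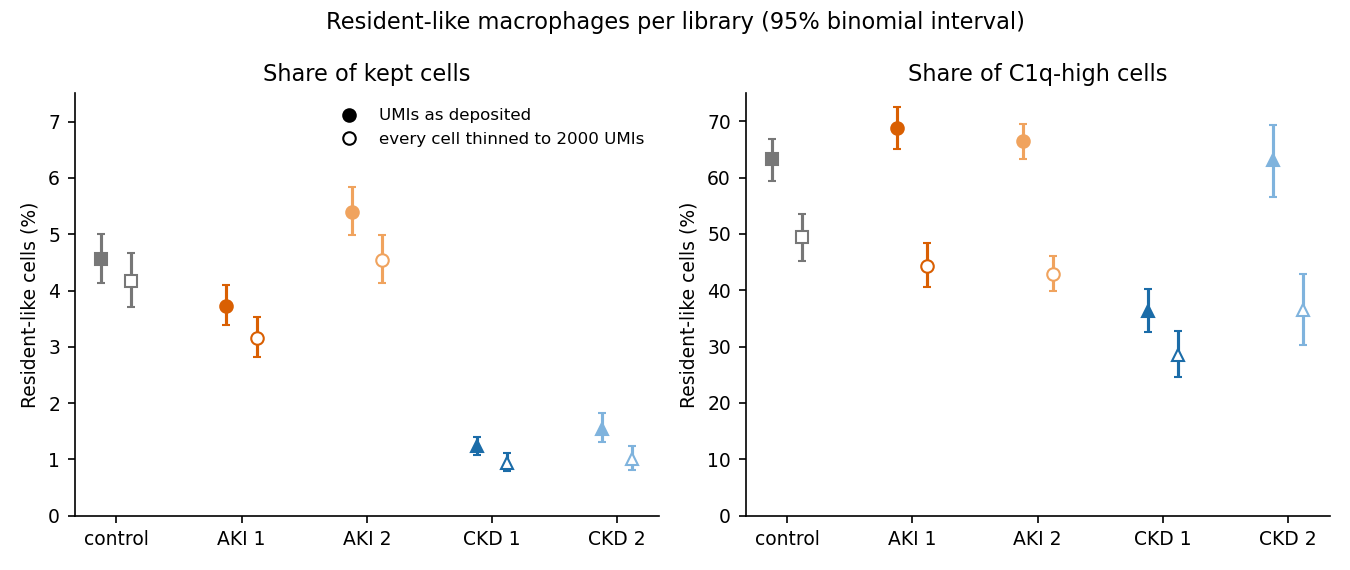
Resident-like cells of each library as a percentage of kept cells (left) and of C1q-high cells (right), with 95% binomial intervals; filled symbols use the UMIs as deposited and open symbols every cell thinned to 2000 UMIs. Both CKD libraries, at 1.23 and 1.55% of kept cells, sit below the control and both AKI libraries on the left, while CKD 2 comes near the other libraries among C1q-high cells.

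Among C1q-high cells, which comprised 3038 cells split into resident-like, Cx3cr1-negative, Fn1-positive and Ctsk-positive cells, the members formed the largest subset in every library but CKD 1 at the depth deposited. They were 63.2% of C1q-high cells in the control, 68.9% and 66.4% in AKI, and 36.3% and 63.1% in CKD. The difference of the CKD from the AKI mean was -17.9 points, with the same smallest exact permutation p of 0.333, and it rested mostly on CKD 1. Cx3cr1-negative cells were 36.8% in the control, 18.5% and 19.5% in AKI, and 54.4% and 26.6% in CKD. Fn1-positive cells were 0 of 661 in the control, which allows up to 0.557% (upper limit of the exact interval), 12.7% and 13.5% in AKI, and 2.75% and 6.44% in CKD. Thinned to 2000 UMIs, members were 49.4% of C1q-high cells in the control, 44.4% and 43.0% in AKI and 28.6% and 36.4% in CKD, so that the order of control and AKI turned with thinning, while CKD lay below both either way, in CKD 2 by little against the control before thinning. Cx3cr1-negative cells were then 50.6% in the control, 50.4% and 50% in AKI and 69.8% and 61.9% in CKD, so that at equal depth they, and not the members, were the largest subset in all 5 libraries.

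The second comparison asked which genes the members carried at different levels in CKD and in AKI. UMIs summed per library were tested with edgeR (quasi-likelihood, Benjamini-Hochberg adjustment, threshold 0.05), and 81 of 10361 genes (0.782%) passed, 44 higher (0.425%) and 37 lower (0.357%) in CKD. The rises were led by small calcium-binding proteins, S100a4, S100a6 and S100a10, with the annexins Anxa1 and Anxa2, the actin-capping protein Capg and the galectin Lgals1. The falls were led by the B cell attractant Cxcl13, the stimulus-induced transcription factor Egr1, and transcripts for carriers, transferrin (Trf) and selenoprotein P (Selenop). At an unadjusted p under 0.05 there were 1499 genes, and the median log2 difference over all genes tested was -0.01.

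S100a4, a calcium-binding protein of motile cells (chromosome 3, 90511074 to 90513354, GRCm39), rose most among the called genes with at least 1 UMI per 10000. Its level was 0.0232 in the control (5 UMIs, exact Poisson interval 0.00753 to 0.0541), 0.676 and 0.828 in AKI, and 12.1 and 7.57 in CKD. Every CKD library thus lay far above every AKI library, with a log2 difference of 3.61 (SE 0.23, adjusted p = 0.00820 by edgeR). S100a6, its neighbour on chromosome 3 (90520140 to 90535843), stood at 0.237 in the control, 1.23 and 1.79 in AKI, and 11.9 and 7.03 in CKD, a log2 difference of 2.54 (SE 0.26, adjusted p = 0.0187). S100a10 (93462213 to 93474510), which pairs with annexin A2 at the membrane, stood at 0.622, then 1.42 and 1.45 in AKI, and 7.77 and 5.68 in CKD, a log2 difference of 2.13 (SE 0.16, adjusted p = 0.00820). Lgals1 was at 0.506 in the control, 3.08 and 3.44 in AKI and 10.8 and 11.1 in CKD. Capg was at 0.111, then 0.813 and 0.990 in AKI, and 3.92 and 4.45 in CKD. All of these genes were lowest in the control and highest in CKD.

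The other leading rises were smaller. Anxa2 rose from 0.388 and 0.579 in AKI to 2.30 and 1.61 in CKD, and Anxa1, whose product dampens leukocyte entry, from 0.621 and 0.855 to 2.14 and 2.95. Lsp1, an actin-binding protein of leukocytes, rose from 0.498 and 0.532 to 2.41 and 1.35, but the control at 1.53 lay with CKD. AA467197, which has no UMI in the control members, went from 0.340 and 0.567 to 1.51 and 1.30. These 4 genes had log2 differences of 1.53 to 1.92 and adjusted p of 0.0322 to 0.0424 (edgeR). Vim, the intermediate filament vimentin, and Lgals3, galectin 3, also rose, by log2 differences of 0.97 and 1.23 (both adjusted p = 0.0356). Left out of the leading genes for their low level were Ly6c2 and Chil3, which are listed as monocyte genes and stood at 0.108 to 0.143 in CKD.

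**Figure D2:**
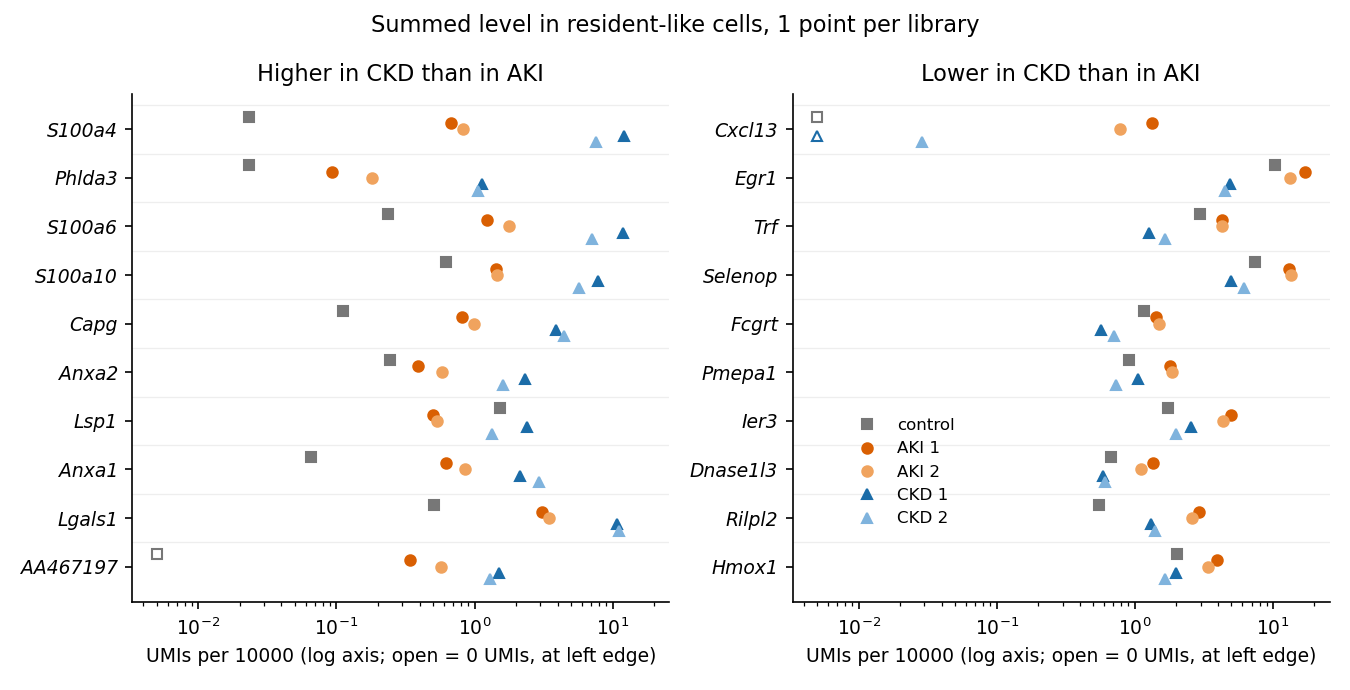
Summed level of the 10 genes that rose most and the 10 that fell most from AKI to CKD, in UMIs per 10000 on a log axis, with 1 symbol per library and open symbols for 0 UMIs. S100a4 runs from 0.0232 in the control to 12.1 in CKD 1, and the CKD symbols stand apart from the AKI symbols for every gene, by the rule that picked them.

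Phlda3, a target of the transcription factor p53 that restrains AKT signalling (chromosome 1, 135693809 to 135697686), rose with them. It stood at 0.0232 in the control, 0.0931 and 0.181 in AKI, and 1.14 and 1.06 in CKD, a log2 difference of 2.88 (SE 0.27, adjusted p = 0.0133 by edgeR). Other genes known as p53 targets were among the 81, and were picked out after their values had been seen. Bax, which opens mitochondria in apoptosis, went from 1.45 and 1.74 to 4.51 and 3.71 (log2 1.27, adjusted p = 0.0295), and Mdm2, which degrades p53, from 0.860 and 0.646 to 2.09 and 1.70 (log2 1.23, adjusted p = 0.0442). Ccng1, cyclin G1, went from 0.342 and 0.331 to 0.792 and 0.885 (log2 1.23, adjusted p = 0.0356), and Rps27l from 3.21 and 3.19 to 7.13 and 5.72 (log2 0.91, adjusted p = 0.0421). All 5 lay higher in both CKD libraries than in both AKI libraries, which follows largely from their choice among the called rises. Known p53 targets that were tested and did not pass were not counted, so no share is given. In T lymphocytes Bax, Mdm2, Ccng1 and Rps27l differed by log2 0.11 to 0.61 between the phases. Bax, Mdm2, Ccng1 and Rps27l did not pass without AKI 1 (adjusted p of 0.159 to 0.390 by edgeR), without AKI 2 (0.127 to 0.392) or with cells lacking Cx3cr1 let in (0.0852 to 0.126), while Phlda3 passed without either AKI library and did not with those cells (0.0587). Cdkn1a, the best known target of p53, stood at 1.61 in the control, 5.19 and 5.18 in AKI and 8.71 and 8.64 in CKD, with a log2 difference of 0.65 that did not pass (adjusted p = 0.0852).

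Promoters of Mdm2, Bax and Ccng1 are shown, known p53 targets whose window holds a match to the decamer that p53 binds, given in capitals. The sequences run from 250 bases before to 50 bases after the start of the gene, read 5′ to 3′ on the gene's strand (RefSeq, GRCm38.p6), for Mdm2 at chr10:117710709-117711008, Bax at chr7:45466849-45467148 and Ccng1 at chr11:40755237-40755536, all on the minus strand.
Mdm2: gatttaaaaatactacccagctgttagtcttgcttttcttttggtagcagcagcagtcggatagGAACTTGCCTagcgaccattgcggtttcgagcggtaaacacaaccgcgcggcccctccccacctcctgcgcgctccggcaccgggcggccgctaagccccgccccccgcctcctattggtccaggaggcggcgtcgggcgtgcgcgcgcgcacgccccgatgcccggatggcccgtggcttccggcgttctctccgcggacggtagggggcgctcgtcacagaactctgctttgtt
Bax: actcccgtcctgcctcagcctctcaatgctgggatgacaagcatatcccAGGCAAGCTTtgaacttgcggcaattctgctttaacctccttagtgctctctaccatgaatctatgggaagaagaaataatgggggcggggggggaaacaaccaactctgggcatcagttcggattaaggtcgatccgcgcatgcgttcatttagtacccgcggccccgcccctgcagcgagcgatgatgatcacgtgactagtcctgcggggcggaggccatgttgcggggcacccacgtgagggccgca
Ccng1: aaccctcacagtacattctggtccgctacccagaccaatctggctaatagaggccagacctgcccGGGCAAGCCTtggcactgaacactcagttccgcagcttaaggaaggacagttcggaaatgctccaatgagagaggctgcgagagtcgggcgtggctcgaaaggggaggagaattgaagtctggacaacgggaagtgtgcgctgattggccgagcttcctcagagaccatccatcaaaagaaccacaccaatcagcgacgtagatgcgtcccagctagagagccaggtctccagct
The decamer, which reads alike on both strands, was found in 4 of the 5 genes looked up (Rps27l, at 1 of its annotated starts, besides the 3 shown) and not in the window of Phlda3. It occurs in 2745 of 32851 promoters of this length (8.36%), and a match is a description of the letters, not a bound site. The 5 genes were looked up because they are known p53 targets. Matches in them thus follow from that choice, cannot be set against the share of all promoters, and say nothing about the members. A part of p53 in the rises was not tested.

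Among the falls, Cxcl13 (chromosome 5, 96104810 to 96108927) was carried by few cells. It had no UMI in the control, 657 and 539 UMIs in AKI 1 and AKI 2, and 0 and 5 UMIs in CKD 1 and CKD 2, that is 1.33 and 0.776 per 10000 in AKI against 0 and 0.0285 in CKD. Of AKI cells thinned to 3000 UMIs, 4.46% and 1.96% had a Cxcl13 UMI. The fitted log2 difference of -6.34 (SE 0.65, adjusted p = 0.0184 by edgeR) gives no size because CKD 1 had no UMI. Egr1 stood at 10.3 in the control, 17.2 and 13.3 in AKI, and 4.87 and 4.47 in CKD, and fell by 1.80 on the log2 scale (SE 0.17, adjusted p = 0.0133). Selenop stood at 7.37, then 13.1 and 13.5 in AKI, and 4.95 and 6.12 in CKD, and Trf at 2.97, then 4.29 and 4.28 in AKI, and 1.27 and 1.66 in CKD. Both genes were thus lower in CKD than in the control as well as in AKI, by a log2 difference from AKI of -1.35 (adjusted p = 0.0322) and -1.64 (adjusted p = 0.0231).

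The other leading falls were smaller. Fcgrt, the recycling receptor for IgG, fell from 1.42 and 1.5 in AKI to 0.571 and 0.708 in CKD, and Hmox1, which breaks down haem, from 3.91 and 3.39 to 1.99 and 1.67. Ier3 fell from 5 and 4.33 to 2.57 and 1.98, Rilpl2 from 2.92 and 2.57 to 1.32 and 1.41, Pmepa1 from 1.80 and 1.87 to 1.05 and 0.736, and the secreted nuclease Dnase1l3 from 1.35 and 1.11 to 0.586 and 0.611. These 6 genes had log2 differences between -1.10 and -1.28 with adjusted p of 0.0356 to 0.0421 (edgeR). Csf1r itself, the receptor these cells depend on, stood at 4.27 in the control, 5.38 and 5.15 in AKI, and 2.92 and 3.13 in CKD, and fell by 0.89 on the log2 scale (adjusted p = 0.0450). Mrc1, the mannose receptor, fell by 1.08 (adjusted p = 0.0375), from 2.83 and 2.91 to 1.34 and 1.56.

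The number of calls moved with the library left out and with the Cx3cr1 criterion. A fit without 1 AKI library takes the spread within a phase from the 2 CKD libraries alone, and the reverse without 1 CKD library. Common dispersion, the fitted spread between libraries, was 0.0477 without AKI 1, 0.0475 without AKI 2, 0.0109 without CKD 1 and 0.0108 without CKD 2. S100a4 kept log2 differences of 3.48 without AKI 1, 3.73 without AKI 2, 3.28 without CKD 1 and 3.86 without CKD 2. Without AKI 1, 12 genes were called, 10 of them among the 81, and of the 20 leading genes only S100a4, Phlda3, S100a10 and Cxcl13 stayed, with S100a6 at 2.31 (adjusted p = 0.0720 by edgeR) and Egr1 at -1.59 (adjusted p = 0.0545). Without AKI 2, 20 genes were called, 18 of them among the 81 and 9 among the 20. Without CKD 1 or CKD 2 the count was 442 or 534 and held all 81. Cells with at least 3 UMIs of other cell types' markers were 332 of 418 in the control, 349 of 418 and 436 of 586 in AKI, and 192 of 238 and 91 of 147 in CKD. Without them 245 of 4815 genes were called, among them 59 of the 72 of the 81 that could be tested. When cells without a Cx3cr1 UMI were let in, 4 genes were called, all among the 81, of which S100a4 (log2 3.81) and S100a10 (2.27) were leading genes. The 81 genes kept their sign in every alternative in which they were tested.

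Read by function, most lists held few called genes. Over all genes tested, 0.425% were called higher and 0.357% lower, so that a list of 10 to 20 genes with 1 call stands above that share by a single gene, and no list was tested as a set. Of 11 monocyte genes tested, 4 rose, S100a4, S100a6, Ly6c2 and Chil3, and none fell, with a median log2 difference of 0.60 against -0.01 over all genes. Their summed level was 2.00 UMIs per 10000 in the control, 5.08 and 5.94 in AKI, and 28.7 and 19.6 in CKD, while that of Ccr2, the receptor that brings monocytes in, was 1.06 and 1.06 in AKI and 1.11 and 1.64 in CKD (log2 0.29, adjusted p = 0.601 by edgeR). Of these 4 genes, S100a4 and S100a6 are carried by many other leukocytes. The count of rises rested on few genes. The 4 monocyte markers Ly6c2, Plac8, Chil3 and Hp summed to 0.184 and 0.289 in AKI and 0.561 and 0.588 in CKD. In T lymphocytes they summed to more, 2.51 and 2.81 in AKI and 4.44 and 3.91 in CKD, and so do not single out monocytes here. The whole monocyte list summed in T lymphocytes to 19.98 and 17.6 in AKI and 25.6 and 23.1 in CKD. By that list the members lay above T lymphocytes in CKD 1 and below them in CKD 2 and both AKI libraries. A part of monocytes in the rises was not tested.

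Immediate-early genes, which respond within minutes to signals and to tissue digestion, lay below 0 in 20 of 20 cases, with a median of -0.79. Of these, Egr1 and Ier2 passed the test and fell. Their summed level was 297 in the control, 338 and 339 in AKI, and 184 and 224 in CKD, and in T lymphocytes of the same libraries 138, then 135 and 130, then 81.0 and 86.8, so that the same list was also lower in CKD in T lymphocytes. Jun stood at 46.3 and 49.1 in AKI and 20.5 and 27.6 in CKD (log2 -1.08, adjusted p = 0.0703 by edgeR), and Klf2 at 25.5 and 27.4 against 11.0 and 14.7 (log2 -1.13, adjusted p = 0.0581). Of 12 heat shock genes 1, Hspa1a, fell and none rose, with a median of -0.37. The part of digestion in these values was not tested.

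**Figure D3:**
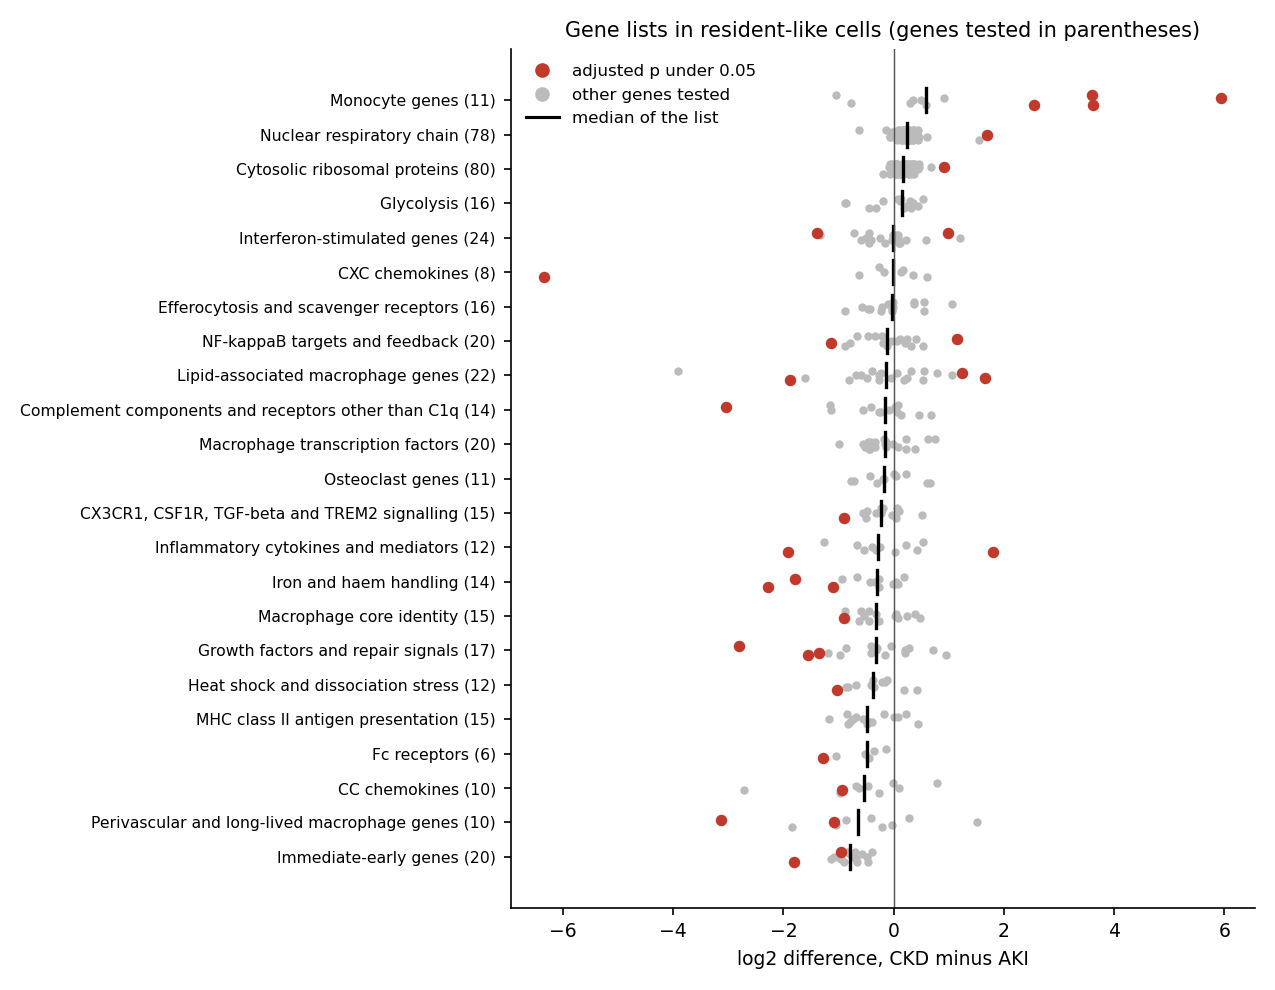
Log2 difference, CKD minus AKI, of each gene tested in 23 functional lists, with genes at an adjusted p under 0.05 in red, other genes in grey and a bar at the list's median. The medians run from -0.79 for immediate-early genes to 0.60 for monocyte genes, and most lists hold at most 2 called genes.

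Antigen presentation and chemokines differed in how far the libraries parted. Of 15 MHC class II genes none was called, although 11 of 15 lay below 0 and the median was -0.48. H2-Aa, the alpha chain of I-A, stood at 88.8 in the control, 94.4 and 90.1 in AKI, and 48.0 and 62.5 in CKD (log2 -0.83, adjusted p = 0.114 by edgeR), and Cd74, the invariant chain, at 221, then 224 and 211, then 137 and 153 (log2 -0.68, adjusted p = 0.116). For both genes the CKD libraries lay below all others without passing the test. Of 10 CC chemokines 1, Ccl3, fell, by 0.94 on the log2 scale (adjusted p = 0.0421). Ccl8, a monocyte attractant, stood at 0.0881 in the control, 30.3 and 25.3 in AKI, and 2.03 and 6.82 in CKD. That was the widest gap of any chemokine above 5 UMIs per 10000, but the CKD libraries differed from each other by over 3 times and the log2 difference of -2.72 did not pass (SE 0.52, adjusted p = 0.0882). Of 8 CXC chemokines 1, Cxcl13, was called.

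Lipid and repair genes were mixed. In the lipid-associated list of 22 genes, Lgals3 and Lgals1 rose, Apoc2 fell and the median was -0.14. Apoe, the lipid carrier and one of the most abundant transcripts of the members, stood at 89.7 in the control, 284 and 295 in AKI, and 76.6 and 125 in CKD (log2 -1.60, SE 0.25, adjusted p = 0.0512 by edgeR). Trem2, a lipid-sensing receptor, stood at 0.269 in the control, 2.71 and 2.78 in AKI, and 2.88 and 3.8 in CKD (log2 0.20, adjusted p = 0.682), so that it was far lower in the control than in either phase. Spp1, osteopontin, stood at 5.11, then 10.8 and 23.8, then 22.8 and 5.85. In T lymphocytes of the same libraries Spp1 stood at 5.52, then 23.7 and 17.2, then 21.8 and 4.55. The members were thus not above T lymphocytes in AKI 1 or the control and were within 1.5 times of them in the other libraries, and the part of free RNA was not tested. Of 17 growth factors 3 fell (Igf1, Il10 and Bmp2) and none rose, and of 14 genes of iron and haem handling 3 fell (Hmox1, Cp and Spic) and none rose, against 0.357% of all genes called lower.

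Other genes by which macrophage subsets of this kidney are named did not pass. Cd68, a lysosomal protein, stood at 3.34 and 3.2 in AKI and 4.11 and 5.54 in CKD (log2 0.48, adjusted p = 0.317 by edgeR). Log2 differences were -0.18 for Pim1, -0.21 for Rel, -0.62 for Ccl4, -0.68 for Ccl5, -0.73 for H2-Eb1 and -0.77 for Mmp9. Cd68 was thus higher in both CKD libraries and the other 6 had negative differences, without a call.

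The remaining lists held few calls. Of 10 perivascular genes 2 fell (Mrc1 and F13a1), with a median of -0.64. Of 6 Fc receptor genes 1 fell (Fcgrt), of 15 core identity genes 1 (Csf1r), of 14 complement genes 1 (C4b) and of 15 genes of CX3CR1, CSF1R, TGF-beta and TREM2 signalling 1 (Csf1r). Of 12 inflammatory genes Tnfsf9 rose and Il1a fell, of 20 NF-kappaB targets Traf1 rose and Ier3 fell, and of 24 interferon-stimulated genes Ifi27l2a rose and Ifit3b fell. None was called among 11 osteoclast genes, 16 efferocytosis genes, 20 transcription factors and 16 glycolytic genes. The limit of at most 1 Ctsk UMI kept osteoclast-like cells out of the members, so that the osteoclast list was read without them. Among 78 nuclear respiratory chain genes 72 lay above 0 with a median of 0.24 and only Cox6b2 was called. That list summed to 168 and 176 in AKI members and 241 and 192 in CKD members. In T lymphocytes it summed to 213 and 190 in AKI and 276 and 228 in CKD, so that it was also higher in CKD there. Among 80 ribosomal protein genes 73 lay above 0 with a median of 0.17 and only Rps27l was called.

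Markers of other cell types were read for free RNA and mixed cells, from which transcripts of the members' own cannot be told apart. Proximal tubule markers summed to 16.5 UMIs per 10000 in the control members, 6.39 and 4.83 in AKI, and 9.13 and 2.20 in CKD, and to 14.4, then 5.94 and 3.28, then 9.64 and 1.74 in T lymphocytes, close to the members in each library. T lymphocyte markers summed to 0.0742 in the control, 0.310 and 0.332 in AKI, and 0.581 and 0.519 in CKD, against 17.9 to 27.4 in T lymphocytes. B lymphocyte markers summed to 1.69 to 2.58 and type 2 dendritic cell markers to 2.57 to 4.18 in all libraries. In T lymphocytes these sums were lower, at 0.867 to 1.09 and 0.0280 to 0.278. Fibroblast markers were at 0.144 or less, erythrocyte markers at 0.0278 or less and endothelial markers at 0.199 or less. In CKD all these sums were below the levels of S100a4 and S100a6, and of S100a10 except for the tubule sum in CKD 1 (9.13 against 7.77). Their part in the results was not tested.

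S100a4 was not raised evenly over the cells. Of cells thinned to 3000 UMIs, 0.289% of members had an S100a4 UMI in the control, 9.41% and 11.1% in AKI, and 59.5% and 48.2% in CKD (unthinned 0.718%, then 18.4% and 20%, then 68.5% and 61.2%). Among T lymphocytes, which carry the gene, the share was 42.6%, then 43.6% and 41.3%, then 66.8% and 58.2%. In tubule cells (at least 3 UMIs of Lrp2, Slc34a1 and Miox), which should lack it, the share was 3.26%, then 1.87% and 4.55%, then 33.5% in CKD 1 and 8.72% in CKD 2, at median depths of 3300 to 8555 UMIs. The share in cells that should lack the gene was thus highest in CKD 1, and in both CKD libraries the members lay above the tubule cells of the same library. CKD 2, where tubule cells held least, gives a share of 48.2% against 8.72%. T lymphocytes of both CKD libraries had a UMI of S100a4 more often than the members. For Capg the members lay highest, with a UMI in 56.5% and 61.2% of CKD members. T lymphocytes had one in 24.7% and 25.8% and tubule cells in 22.1% and 9.17%.

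Members of the CKD libraries without S100a4 and those with at least 2 UMIs of it differed in other genes. The split counted 81 and 72 CKD cells at 0 UMIs and 91 and 41 at 2 or more, after thinning, and gives a description without a test because it was made after seeing the values. Cells with S100a4 held S100a6 at 18.5 and 15.5 UMIs per 10000 against 2.76 and 2.50 in cells without, and Vim at 28.7 and 33.5 against 8.89 and 11.0. In the other direction, cells without S100a4 held Apoe at 148 and 191 against 21.4 and 24.6, and Mrc1 at 1.77 and 2.31 against 0.623 and 1.22. S100a6 and Vim thus stood with S100a4, and Apoe and Mrc1 in the cells that lacked it. Adgre1, the check of the label, was at 1.03 and 0.569 in the CKD cells with S100a4 against 2.47 and 2.31 in those without, and Ly6c2 at 0.293 (8 UMIs) and 0.407 (5 UMIs) against 0.0412 (1 UMI) and 0. The 91 and 41 CKD members with S100a4 therefore matched the resident-like label less well by Adgre1 than the members without it. Ccl8 was at 3.54 and 11.2 in cells without S100a4, where AKI cells without S100a4 held 33.4 and 31.8.

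Phlda3 was lower in the CKD cells with S100a4 than in those without. It stood at 1.73 and 1.81 UMIs per 10000 in CKD cells without S100a4 and at 0.623 and 0.407 in those with it, while AKI cells without S100a4 held 0.109 and 0.161. The rise of Phlda3 from AKI to CKD was therefore also seen among the cells that carried no S100a4 UMI. Other leading genes rose in such cells too. S100a6 stood in them at 0.911 and 0.850 in AKI and 2.76 and 2.50 in CKD. S100a10 went from 0.984 and 0.944 to 3.05 and 3.06, and Capg from 0.483 and 0.582 to 2.14 and 3.70. Egr1 fell short of AKI in both groups, at 7 and 5.88 in CKD cells without S100a4 and 2.97 and 3.33 in those with it, against 19.0 and 15.5 in AKI cells without S100a4. Of Phlda3, the share of thinned cells with a UMI was 20% and 23% in CKD members, 4.65% and 1.93% in T lymphocytes and 20% and 19.3% in tubule cells. Members were thus above T lymphocytes in both CKD libraries, level with tubule cells in CKD 1 and a little above them in CKD 2. Such levels rest on few UMIs per cell, and a cell thinned to 0 UMIs may still have carried the gene.

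**Figure D4:**
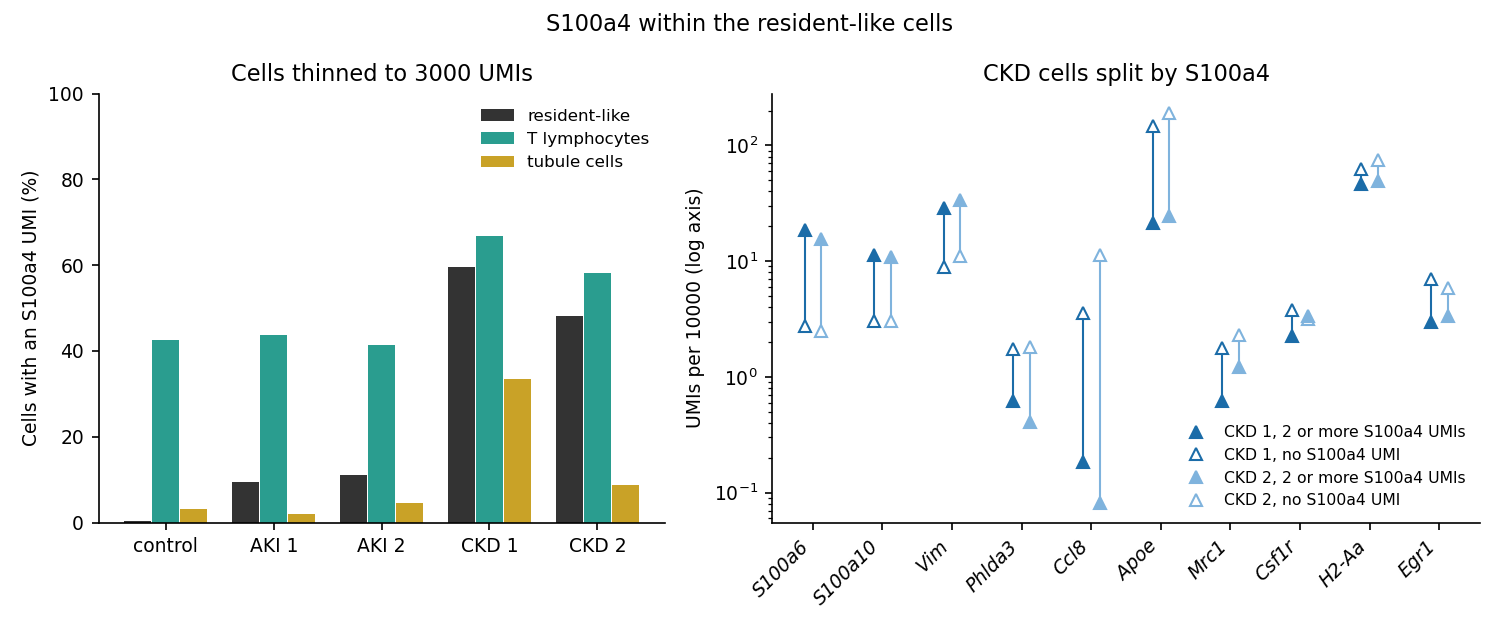
Left, percentage of cells with an S100a4 UMI after thinning to 3000 UMIs in resident-like cells, T lymphocytes and tubule cells of each library; right, levels on a log axis in CKD members with 2 or more S100a4 UMIs (filled) and with none (open). Members rise from 0.289% in the control to 59.5% in CKD 1, where 33.5% of tubule cells also had a UMI; S100a6, S100a10 and Vim lie higher, and Phlda3, Ccl8, Apoe and Mrc1 lower, in the cells with S100a4.

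The third comparison set the control members beside AKI. With 1 control library there is no test, and genes were listed where both AKI libraries differed from the control by at least 4-fold and one side reached 1 UMI per 10000. Of 1229 genes, 34 (2.77%) were higher and 29 (2.36%) lower in AKI by that rule. Ccl8 led the genes higher in AKI, from 19 UMIs in the control (0.0881 per 10000, exact Poisson interval 0.0531 to 0.138) to a mean of 27.8 ± 3.56 (SD, n = 2), a ratio of 315. Ccl7, another monocyte attractant, stood at 0.371 (0.294 to 0.462) against 19.7 and 15. Vim stood at 0.682 (0.576 to 0.801) against 9.47 and 9.52, and C3, the central complement component, at 0.111 (0.0713 to 0.166) against 1.91 and 1.81. Monocyte attractants, a filament protein and a complement component were thus among the genes far lower in the control members than at week 2.

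Others followed the same order. Cxcl13 had no UMI in the control, and against the floor of 3 UMIs per library its AKI mean was at least 75.6-fold higher. Lyz1, a lysozyme, had 1 UMI in the control (interval 0.000117 to 0.0258 per 10000) and stood at 1.68 and 1.13 in AKI. Nupr1, Cfp and Fabp5 stood at 0.0742, 0.162 and 0.102 in the control and at means of 1.06, 2.06 and 1.51 in AKI, ratios of 14.3, 12.7 and 14.8. Ccl5, at 0.547 in the control against 9.36 and 7.07 in AKI, was far higher in T lymphocytes, at 28.7 in the control and 60.3 and 63.7 in AKI.

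Of the 10 genes furthest lower in AKI, 9 are genes of tubule segments. Egf stood at 8.69 in the control members against 0.0344 and 0.0302 in AKI, and at 7.35 against 0.148 and 0.0352 in T lymphocytes. Klk1, S100g, Calb1, Slc12a3, Kl, Tmem52b and Wfdc15b had control levels in members of 1.64 to 23.9 and in T lymphocytes of 1.48 to 19.2, and Kap stood at 2.90 in members and 0.769 in T lymphocytes. Apart from Kap, these genes thus stood at close levels in both cell types of the control. The exception was Mmp13, collagenase 3, at 2.91 (interval 2.69 to 3.15) in control members against 0.180 and 0.171 in AKI and 0.247 and 0.177 in CKD, with 0.0122 or less in T lymphocytes. Mmp13 was thus far above the T lymphocytes in control members and 16.6-fold lower in AKI.

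The fourth comparison asked how the members differ from the Fn1-positive macrophages of the same libraries. These held at least 2 UMIs of Fn1, the matrix protein fibronectin, with or without Cx3cr1, and met the other limits of the definition. The comparison was run in AKI 1 and AKI 2, the libraries with at least 20 cells of each subset (418 and 586 members against 77 and 119 Fn1-positive cells). Of 10430 genes, 1276 (12.2%) were called, 656 higher (6.29%) and 620 lower (5.94%) in members (edgeR, adjusted p under 0.05, library as block). Fn1-positive cells were deeper, with medians of 15111 and 16095 UMIs, and the part of depth was not tested. As Fn1 and the Cx3cr1 criterion set the subsets apart, genes that go with either differ in part by the choice of cells.

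Members were higher in the chemokines Ccl8 and Cxcl13 and lower in Arg1 and S100a4. Ccl8 stood at 30.3 and 25.3 in members against 1.28 and 1.13 in Fn1-positive cells, a log2 difference of 4.62 (SE 0.14, adjusted p = 1.82e-08 by edgeR). Cxcl13 (8.37, at 0 and 0.00475 in Fn1-positive cells), Dnase1l3 (3.54) and the lectin Clec4a1 (2.91) were also higher, as was the water channel Aqp1 (5.17), which stood at 0.995 and 1.32 in members and at 0.799 and 0.511 in T lymphocytes. Adgre1, not used in the definition, was higher in members by 1.15 on the log2 scale (SE 0.13, adjusted p = 0.000181), Mrc1 by 1.59 and H2-Aa by 1.36. The same cells were lower in Arg1, the arginase of repair macrophages, at 0.00202 and 0.0461 against 0.645 and 1.43 (log2 -5.34), in Clec4e (-3.04), in the growth factor Areg (-2.69) and in AA467197 (-3.32). S100a4 stood at 0.676 and 0.828 in members and at 5.32 and 4.47 in Fn1-positive cells, a log2 difference of -2.60 (SE 0.14, adjusted p = 1.41e-06), and S100a6 and Capg were lower too, by -2.10 and -2.05.

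No gene passed the test of whether members and Fn1-positive cells changed differently from AKI to CKD. Of 9489 genes tested for that difference, 0 (0%) had an adjusted p under 0.05 with edgeR, 642 had an unadjusted p under 0.05, and DESeq2 called 14. CKD held only 18 and 15 Fn1-positive cells. S100a4 stood in them at 18.9 and 14.1 in CKD, above the members of either CKD library, and its difference of changes was 1.83 on the log2 scale (SE 0.22, adjusted p = 0.0716 by edgeR). Ctsk-positive cells reached 20 cells only in CKD 1 (43 cells, against 9 in CKD 2), so no test against them was made.

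The last comparison asked whether the changes of the members went beyond those of T lymphocytes in the same libraries, the most numerous other cells (24670 cells, with at least 3 UMIs of the Cd3 genes and at most 1 of C1q). Of 14594 genes, 48 (0.329%) changed differently in the 2 cell types, 29 in favour of the members (0.199%) and 19 against (0.13%) (edgeR, adjusted p under 0.05, library as block). S100a4 rose in members by 2.69 more than in T lymphocytes on the log2 scale (SE 0.24, adjusted p = 0.000477), where it stood at 4.42 and 4.25 in AKI and 8.80 and 7.55 in CKD. Phlda3 (2.99), S100a6 (2.52), Capg (2.11) and S100a10 (1.98) also gained more in members. S100a6 in T lymphocytes was at 9.69 and 6.85 in AKI and 8.91 and 7.65 in CKD, with no order between the phases. In T lymphocytes alone, CKD against AKI gave 0 called genes of 15128 with edgeR, with 2732 at an unadjusted p under 0.05.

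**Figure D5:**
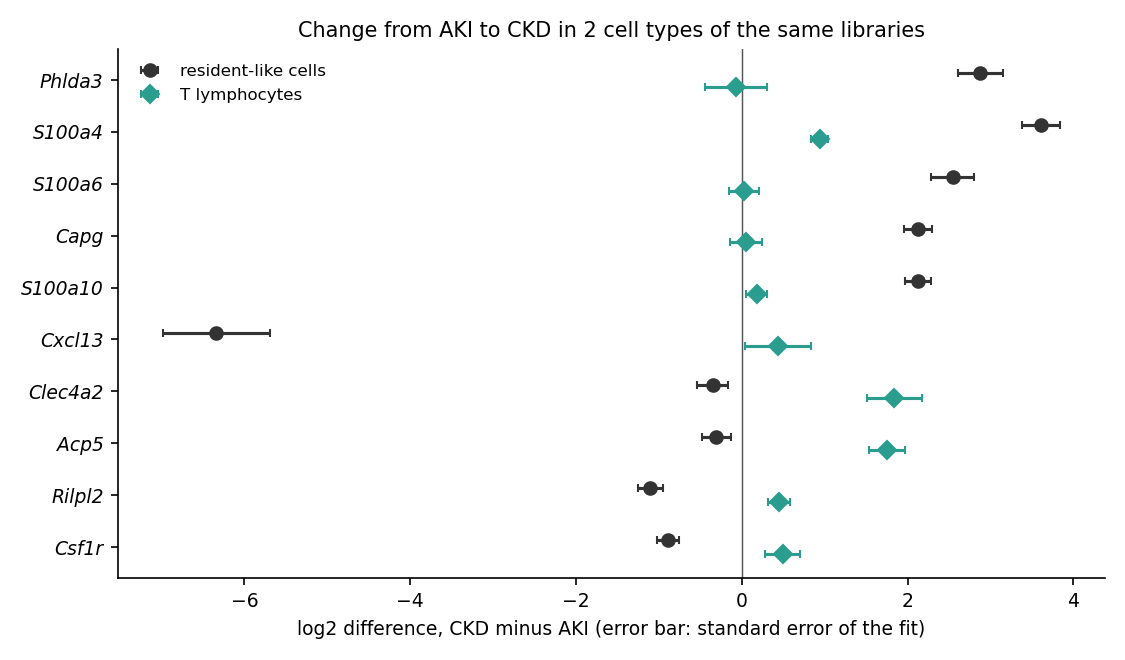
Log2 difference, CKD minus AKI, with its standard error from edgeR in resident-like cells (circles) and T lymphocytes (diamonds), for the 5 genes with the largest positive and the 5 with the largest negative difference between the cell types. S100a4 stands at 3.61 in members and 0.94 in T lymphocytes, and for Clec4a2 and Acp5 the T lymphocytes moved more than the members.

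Cxcl13 (-6.73), Rilpl2 (-1.51) and Csf1r (-1.34) lost more in members than in T lymphocytes. For Clec4a2 (-2.16) and Acp5 (-2.02), T lymphocytes had the larger change. Clec4a2 was at 1.87 and 1.99 in AKI and 1.36 and 1.85 in CKD members, but at 0.0164 and 0.0237 against 0.0860 and 0.0563 in T lymphocytes. Acp5, the phosphatase of osteoclasts, was at 1.32 and 1.36 against 1.01 and 1.29 in members, and at 0.679 and 0.845 against 3.02 and 2.06 in T lymphocytes. Neither gene passed the test in members (log2 -0.35, adjusted p = 0.450, and -0.31, adjusted p = 0.477). The Ctsk limit had left osteoclast-like cells out of the members, so that Acp5 was read without them. Without the library as a block 2 genes were called, S100a4 among them at 2.71 (adjusted p = 0.0436), and of the 10 named genes 3 stayed called without CKD 1, 8 without CKD 2 or AKI 1 and 10 without AKI 2, at unchanged signs.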

How the data were processed

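UMI counts per gene and barcode were deposited by the authors as whole numbers for each library, with no normalization applied to them. The submitters' processing notes name Cell Ranger 7.2.0 and GRCm39, the AKI and CKD files cellranger 5.0.0, and the gene list of the control mm10; all list the same 32285 genes. Removal of free RNA and of doublets is not part of the counts and was not repeated.

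Of 72896 barcodes, 60043 passed limits of 200 genes and 30% mitochondrial UMIs. Members and gene lists were chosen with earlier results of these data known. UMIs were summed per library and subset and tested with edgeR 4.0.16 in R 4.3.3 (TMM, filterByExpr, quasi-likelihood test, Benjamini-Hochberg, threshold 0.05), and the code was tested on simulated data. Genes of the definition and mitochondrial genes stayed in library totals but were not tested. Named are the 10 largest rises and falls (5 in other tests) with an adjusted p under 0.05, phases that do not overlap and at least 1 UMI per 10000, the most abundant members of each list, and genes by which the study names macrophage subsets, without predicted genes. Others were picked after their values were seen and are given as such or belong to a list.

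Shares have exact binomial and control levels exact Poisson intervals at the 95% level, from Python 3.11.15 with scipy 1.17.1; both cover counting error only. The p53 decamer was sought in RefSeq promoters. Alternatives were DESeq2 1.42.0, RLE normalization, no filter on low counts, a mitochondrial limit of 15%, other limits of the definition, thinning, replicate blocks and leaving out each library. The replicate numbers of AKI and CKD libraries are not said to mark a shared animal or day, and are treated as numbers alone.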

Additional observations from a re-analysis of the deposited data

Results flagged for a closer look

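In 10 genes the change from AKI to CKD differed between the members and T lymphocytes of the same libraries, by edgeR's test of the difference itself (adjusted p from 0.000477 to 0.0401). They were the largest among those called, so their sizes were in part chosen by that ranking. On the log2 scale, members minus T lymphocytes, the differences were 2.99 for Phlda3, 2.69 for S100a4, 2.52 for S100a6, 2.11 for Capg and 1.98 for S100a10. They were -6.73 for Cxcl13, -2.16 for Clec4a2, -2.02 for Acp5, -1.51 for Rilpl2 and -1.34 for Csf1r. For Cxcl13 the size is not interpretable, as CKD 1 members held 0 UMIs. Phlda3, S100a6, Capg and S100a10 changed by at most 0.18 in T lymphocytes in either direction, whereas Clec4a2 and Acp5 moved by 1.84 and 1.75 there and by -0.35 and -0.31 in the members. With RLE normalization 5 of the 10 were called (S100a4, S100a6, Capg, S100a10 and Cxcl13).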

How the results depend on the processing

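Counts of called genes moved with the processing, while the share of members was lower in both CKD libraries than in both AKI libraries in every alternative. The share moved beyond its spread only among cells other than T lymphocytes (-7.95 points). For CKD against AKI in members (81 genes), DESeq2 called 210 and no filter on low counts 739. Leaving out 1 library gave 12 to 534, other limits 4 without the Cx3cr1 criterion, 147 with at least 20 C1q UMIs, 234 after thinning to 3000 UMIs and 245 without cells that carry other markers (4815 genes tested). Leaving out the deepest 5% of cells, an alternative chosen after seeing the data, gave 424. RLE, the 15% limit, Fn1 at 0 and cells of at least 5000 UMIs (also chosen later) gave 78 to 82.

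With the replicate block 21 genes were called, all among the 81; same-numbered libraries deviated from their phase means with a correlation of -0.13 across genes, and the numbers are not taken to pair them. The crossed replicate block, added after seeing the data, gave 357 genes (141 higher, 216 lower).

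Against Fn1-positive cells (1276 genes), DESeq2 called 409, a limit of at least 5 Fn1 UMIs 849 and all 4 libraries, added later, 745, where Cxcl13 was no longer called. For the difference of changes from Fn1-positive cells (0 genes), DESeq2 called 14, no filter 133, the 15% limit 1 and leaving out 1 library 9 to 81. For that from T lymphocytes (48 genes), RLE called 18, no filter 266, the 15% limit 26, the fit with no replicate block 2, and leaving out 1 library 10 to 133.

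Among single genes 2 turned. Cxcl9 ran from -0.53 without CKD 2 (adjusted p = 0.0382 by edgeR) to 0.63 without CKD 1 (adjusted p = 0.0145) against 0.17, and Trem2 went from 0.20 to -0.79 without cells carrying other markers (adjusted p = 0.0381). The cause was not tested. Leaving out a library against Fn1-positive cells and any test against Ctsk-positive cells were not run for want of libraries. Depth limits the control, whose members were shallowest, and genes under about 1 UMI per 10000.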
